A study of Homo sapiens with 8 samples.

Results

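The zinc finger genes of chromosome 19 were described from H3K27ac ChIP-seq peaks of MP2_HDAC1_OE and MP2_NTC, which both derive from MIA PaCa-2. They are the RefSeq protein-coding genes of chromosome 19 whose symbols begin with ZNF, 250 of the 20037 protein-coding genes placed on GRCh38. The symbols alone chose them, so they include 3 readthrough genes (ZNF559-ZNF177, ZNF816-ZNF321P and ZNF765-ZNF761) and ZNF470-DT. No measured value entered this rule, but the rule was set with earlier results of these data known. MIA PaCa-2 is a cell line of human pancreatic carcinoma. Both lines carry the CRISPR activation plasmids lentiMPHv2 and lentiSAMv2. MP2_HDAC1_OE holds a guide RNA that activates HDAC1 from its own locus, and MP2_NTC holds a non-targeting guide RNA. Each line is a single stable line, with 2 H3K27ac samples and 2 control samples made without antibody.

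The authors deposited 1 list of reproducible peaks per line, 25045 peaks for MP2_HDAC1_OE and 22569 for MP2_NTC. Each list pools the 2 samples of its line, so there is no value per sample, no replicate error between the lines and no test of a difference between them. The files give no read counts, so the depth is unknown. The intervals given here cover counting error over genes alone, and neighbouring genes of a cluster are not independent. No difference between the lines below is shown to exceed the spread between cultures.

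Zinc finger proteins of the C2H2 kind read DNA with arrays of small zinc-binding fingers, and chromosome 19 carries large tandem clusters of them that arose by duplication. Many of these proteins also carry a KRAB domain, which recruits the corepressor TRIM28 and through it the histone methyltransferase SETDB1, HP1 proteins and the NuRD complex. HDAC1 is a subunit of NuRD and removes acetyl groups from histones. Acetylation of lysine 27 on histone H3 (H3K27ac) marks active promoters and enhancers, and transposable elements are the best known targets of the KRAB zinc finger proteins. Which members carry a KRAB domain was not analysed here.

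A peak was assigned to a gene when it shared at least 1 bp with a window from 2 kb outside to 1 kb inside either gene end. Peaks of both lines that shared 1 bp were merged into regions, and a region was called unique when all of its peaks came from a single line. The deposited signal of a peak cannot be compared in size between the lists. It was therefore turned into a rank, the percent of peaks of the same list with a lower signal, and a gene was given the rank of its strongest peak in each line. Promoter sequences and strands came from the RefSeq promoter table (GRCh38.p14), which lists 219 of the 250 members and for each start the 300 bases from 250 before to 50 after it.

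The following promoters are shown because their genes stand for the patterns described below. ZNF460 ranked near the top of both lists, ZNF416 had the highest rank among members with peaks of MP2_HDAC1_OE only, and ZNF708 had the highest among members with peaks of MP2_NTC only. ZNF44 and ZNF837 had large rank differences in opposite directions, and ZNF208 had no peak of either line. Each sequence holds the 250 bases before the gene's listed start, 5′ to 3′ on the gene's strand. Capitals mark matches, on either strand, to the CCAAT box, the GC box, the ETS core and the TATA box defined further on. They lie at chr19:57279732-57279981 (ZNF460, plus strand), chr19:57578912-57579161 (ZNF416, minus strand), chr19:21329411-21329660 (ZNF708, minus strand), chr19:12294884-12295133 (ZNF44, minus strand), chr19:58381031-58381280 (ZNF837, minus strand) and chr19:22010944-22011193 (ZNF208, minus strand).
ZNF460: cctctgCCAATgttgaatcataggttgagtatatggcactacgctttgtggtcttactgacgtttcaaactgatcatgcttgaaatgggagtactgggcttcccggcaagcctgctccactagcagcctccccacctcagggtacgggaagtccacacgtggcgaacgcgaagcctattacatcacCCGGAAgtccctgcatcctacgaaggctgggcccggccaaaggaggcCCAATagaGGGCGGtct
ZNF416: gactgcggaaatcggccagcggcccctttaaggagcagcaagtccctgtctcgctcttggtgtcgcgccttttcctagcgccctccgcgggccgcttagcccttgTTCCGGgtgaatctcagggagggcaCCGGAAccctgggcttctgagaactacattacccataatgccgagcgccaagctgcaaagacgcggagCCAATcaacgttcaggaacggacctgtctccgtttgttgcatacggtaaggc
ZNF708: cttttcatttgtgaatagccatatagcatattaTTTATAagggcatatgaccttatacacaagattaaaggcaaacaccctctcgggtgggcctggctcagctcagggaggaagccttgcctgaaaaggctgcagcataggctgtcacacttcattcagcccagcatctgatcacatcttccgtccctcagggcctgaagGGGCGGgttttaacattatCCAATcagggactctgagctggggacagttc
ZNF44: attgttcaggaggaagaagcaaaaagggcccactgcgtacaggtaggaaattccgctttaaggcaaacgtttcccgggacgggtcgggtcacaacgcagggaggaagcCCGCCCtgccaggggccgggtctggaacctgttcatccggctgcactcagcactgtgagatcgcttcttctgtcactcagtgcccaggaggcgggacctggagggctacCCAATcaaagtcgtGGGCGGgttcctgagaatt
ZNF837: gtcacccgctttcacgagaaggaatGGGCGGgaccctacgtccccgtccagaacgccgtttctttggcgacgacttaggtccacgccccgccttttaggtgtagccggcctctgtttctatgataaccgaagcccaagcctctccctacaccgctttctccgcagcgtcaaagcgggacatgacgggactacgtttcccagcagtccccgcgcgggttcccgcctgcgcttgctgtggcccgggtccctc
ZNF208: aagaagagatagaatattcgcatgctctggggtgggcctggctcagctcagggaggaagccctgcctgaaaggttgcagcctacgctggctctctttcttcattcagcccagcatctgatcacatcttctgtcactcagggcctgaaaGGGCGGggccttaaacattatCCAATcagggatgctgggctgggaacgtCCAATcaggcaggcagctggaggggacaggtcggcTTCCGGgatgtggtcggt
The sequences differ in CpG content. The 250 bases of ZNF837 hold 25 CpG, those of ZNF416 hold 20, those of ZNF44 hold 14 and those of ZNF460 hold 12, while those of ZNF208 hold 7 and those of ZNF708 hold 3.

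H3K27ac peaks were found at most of the zinc finger genes of chromosome 19. A peak of either line lay in the window of 156 of 250 members (62.4%, 95% Wilson interval 56.3 to 68.2), beside 48.5% of all protein-coding genes. Of the other 1201 protein-coding genes of chromosome 19, 666 (55.5%, 52.6 to 58.2) had one, and of the 268 ZNF genes of other chromosomes, 187 (69.8%). MP2_HDAC1_OE peaks lay at 132 members (52.8%, against 43.3% of all protein-coding genes) and MP2_NTC peaks at 139 (55.6%, against 42.2%). Both lines had a peak at 115 members (46.0%, against 36.9%). The other 94 members had no peak of either line in their windows.

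Peaks of a single line were found at 41 members. MP2_HDAC1_OE alone had a peak at 17 members (6.80%, 4.29 to 10.6), beside 6.36% of all protein-coding genes. MP2_NTC alone had a peak at 24 members (9.60%, 6.54 to 13.9), beside 5.24% of all protein-coding genes. With windows of 2 kb outside the gene ends only, the order turned, with 32 members for MP2_HDAC1_OE alone and 25 for MP2_NTC alone. Among the 186 members with no other coding gene's end in the window, the counts were nearly equal, 15 and 16. In the windows used here the other genes of chromosome 19 had the opposite order to the members, with 90 genes for MP2_HDAC1_OE alone (7.49%) and 52 for MP2_NTC alone (4.33%). ZNF genes of other chromosomes also had more genes with MP2_HDAC1_OE alone (20) than with MP2_NTC alone (10). By region, 114 members had a shared region (45.6%, against 36.0% of all protein-coding genes). A region unique to MP2_HDAC1_OE lay at 28 members (11.2%, against 12.1%) and a region unique to MP2_NTC at 32 (12.8%, against 10.4%), and these shares are close to the background. They depend on the overlap rule, since 76 and 79 members had a unique region when peaks had to overlap by 50% of both.

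**Figure D1:**
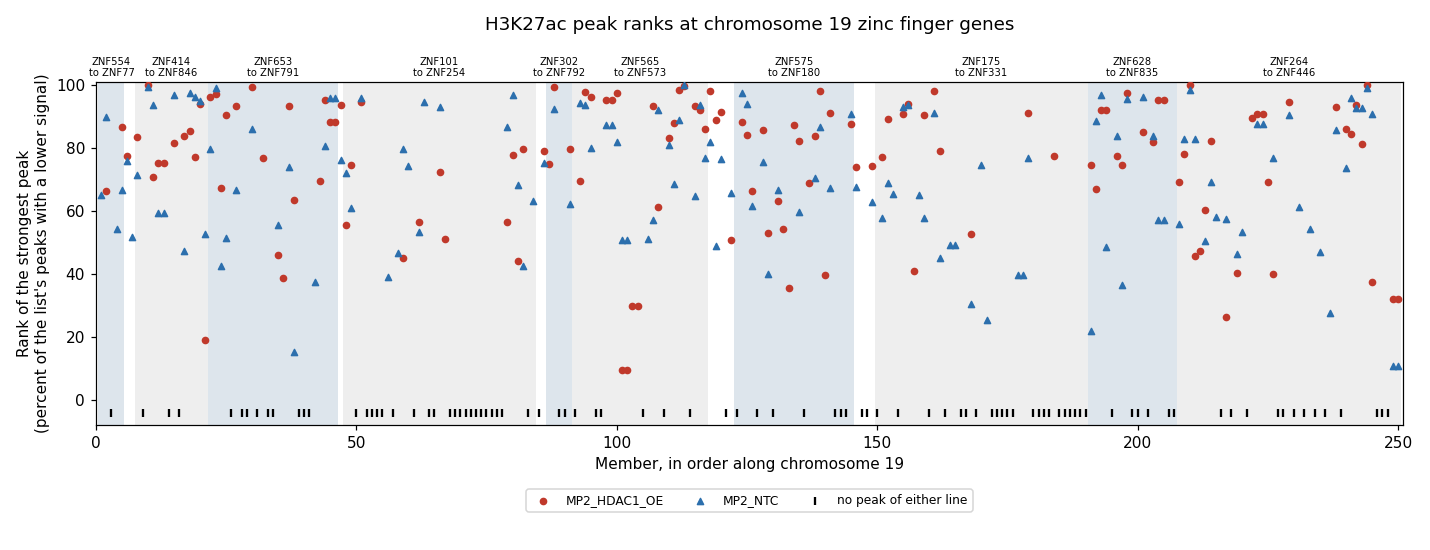
Rank of the strongest H3K27ac peak (percent of the peaks of the same list with a lower signal) of each of the 250 members, in their order along chromosome 19. Circles are MP2_HDAC1_OE, triangles are MP2_NTC, ticks below 0 are the 94 members without a peak of either line, and shaded bands are the 10 clusters of at least 5 members; the ticks run closest together in the clusters from ZNF101 to ZNF254 and from ZNF175 to ZNF331.

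The strongest peaks of the members sat at gene starts. Among members with a listed strand, the strongest peak lay at the start for 117 of 119 in MP2_HDAC1_OE (98.3%, against 91.7% of all protein-coding genes) and for 121 of 127 in MP2_NTC (95.3%, against 92.1%). Its summit lay within 500 bp of the start for 103 of the 117 (88.0%) and 105 of the 121 (86.8%). The median summit was 154 bp inside the gene in MP2_HDAC1_OE and 197 bp inside it in MP2_NTC, against 151 and 158 bp over all protein-coding genes. In all, 235 distinct MP2_HDAC1_OE peaks (0.938% of the list) and 231 distinct MP2_NTC peaks (1.02%) lay in the members' windows. Among members of 10 kb or longer, ZNF649, ZNF766, ZNF530 and ZNF544 had regions at both ends. At ZNF530 the strongest peaks of both lines (ranks 90.6 and 87.5) lay at the gene's far end and are also the strongest peaks of its neighbour ZNF134.

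Some members cannot be told apart because they share their strongest peak. In MP2_HDAC1_OE 9 peaks, and in MP2_NTC 10 peaks, were the strongest peak of a pair of members, and 7 pairs were the same in both lines. For 2 of the 9 pairs and 4 of the 10 the peak lay at the far end of a gene and the start of its neighbour, as for ZNF530 and ZNF134. ZNF461 and ZNF567 shared peaks with ranks of 95.1 in MP2_HDAC1_OE and 87.2 in MP2_NTC. ZNF490 and ZNF791 shared peaks with ranks of 88.2 and 95.9. With the members of these pairs included, the strongest peak lay in the window of another protein-coding gene for 28 members in MP2_HDAC1_OE and 31 in MP2_NTC.

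The median rank of members with a peak was above that of all protein-coding genes in MP2_HDAC1_OE and below it in MP2_NTC, where the members' interval spans the background. The median rank of the strongest MP2_HDAC1_OE peak was 82.1 (95% interval 77.3 to 85.9, n = 132), beside 76.5 over all protein-coding genes with such a peak. The median rank of the strongest MP2_NTC peak was 72.1 (65.8 to 76.9, n = 139), beside 74.5 over all protein-coding genes. ZNF genes of other chromosomes had medians of 83.3 and 82.7, and other genes of chromosome 19 had 78.6 and 78.0. The top 10% of the MP2_HDAC1_OE list reached 43 members (32.6% of those with a peak, against 24.6% of all protein-coding genes), and the top 10% of the MP2_NTC list reached 35 (25.2%, against 23.1%).

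By mean rank, 6 members led. ZNF793 had ranks of 99.5 in MP2_HDAC1_OE and 99.9 in MP2_NTC, with deposited signals of 133 and 179. ZNF317 had ranks of 99.9 and 99.4, ZNF497 of 99.8 and 99.1, and ZNF460 of 99.8 and 98.3. ZNF627 had ranks of 97.0 and 98.9, and ZNF787 of 97.3 and 95.4. These genes lay in 5 of the clusters described below, and at each of them the lines had a shared region. At ZNF460 the strongest MP2_HDAC1_OE peak ran from 57279848 to 57280407 and the strongest MP2_NTC peak from 57279907 to 57280372, so both covered the end of the printed sequence. The lowest mean ranks belonged to ZNF324 and ZNF446, which shared peaks ranked 32.0 and 10.8, and to ZNF790, with 9.56 and 50.8.

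The rank of the strongest peak was more often higher in MP2_HDAC1_OE. In the 115 members with a peak of both lines, the median of the rank difference, MP2_HDAC1_OE minus MP2_NTC, was 4.82 points (95% interval 0.946 to 11.4). The rank was higher in MP2_HDAC1_OE at 72 members (62.6%, against 54.5% of protein-coding genes) and higher in MP2_NTC at 43. The share higher in MP2_HDAC1_OE was 55.5% for other genes of chromosome 19 and 54.8% for ZNF genes of other chromosomes. Over the 7400 protein-coding genes with a peak of both lines the median was 1.10 (0.749 to 1.60), over other genes of chromosome 19 it was 1.16 (0.112 to 2.85), and over ZNF genes of other chromosomes it was 0.746. The interval of the members overlaps each of these intervals. The strongest peaks of the lines overlapped at 105 of the 115 members (91.3%, against 83.2% of protein-coding genes), and there the median was 4.12. A difference of at least 20 points in favour of MP2_HDAC1_OE was found at 22 members (19.1%, against 16.5%) and in favour of MP2_NTC at 16 (13.9%, against 12.5%). The other 77 members (67.0%) were within 20 points.

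**Figure D2:**
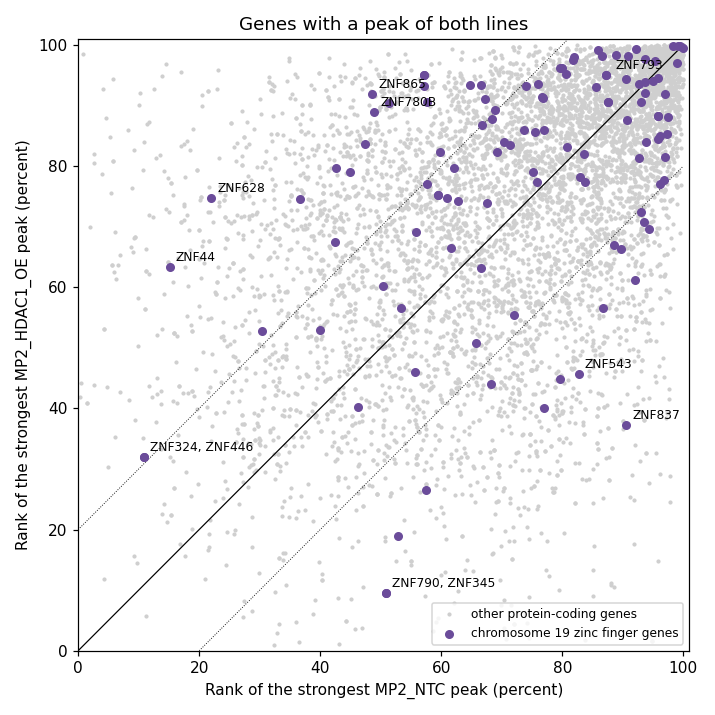
Rank of the strongest MP2_NTC peak (x axis, percent) against that of the strongest MP2_HDAC1_OE peak (y axis, percent) for genes with a peak of both lines. Purple points are the 115 members, grey points are the other protein-coding genes, the solid line is equal rank and the dotted lines are 20 points to either side; 72 members lie above the solid line and 43 below it.

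ZNF628 had its strongest MP2_HDAC1_OE peak at rank 74.7 and its strongest MP2_NTC peak at 22, a difference of 52.7 points, but these peaks did not overlap and the gene had no shared region. ZNF865 had ranks of 91.9 and 48.6 (43.3 points), again with no shared region, and its MP2_HDAC1_OE peak is also the strongest of ZNF524. At ZNF44 the peaks lay in 1 shared region, with ranks of 63.3 and 15.1 (48.2 points), and at ZNF780B they had ranks of 88.9 and 48.9. In the other direction ZNF837 had ranks of 37.3 and 90.6 (-53.4 points). Its MP2_HDAC1_OE peak ran from 58380788 to 58381130 and its MP2_NTC peak from 58380069 to 58380888, so they overlapped only in part. ZNF790 and ZNF345 share their peaks, with ranks of 9.56 and 50.8 (-41.2 points), but these strongest peaks of the lines did not overlap. A weaker MP2_NTC peak of the same shared region, which overlaps the MP2_HDAC1_OE peak, had a rank of 8.74. ZNF543 had ranks of 45.7 and 82.7 (-37.0 points).

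Members with peaks of MP2_HDAC1_OE only had lower ranks than members with peaks of both lines. Their median rank was 54.1 (n = 17), against 84.0 for the MP2_HDAC1_OE peaks of the 115 members with both. ZNF416 ranked highest at 89.4, with 3 peaks in 1 region from 57578328 to 57579579 that covers its printed promoter, followed by ZNF284 (87.1), ZNF845 (77.3), ZNF433 (76.9) and ZNF302 (75). ZNF302 is a case of position, since an MP2_NTC peak lay 143 bp beyond its MP2_HDAC1_OE peak and outside the window, in the same merged region. ZNF709 (69.6), ZNF211 (69.1), ZNF234 (68.8), ZNF222 (54.1), ZNF100 (51.0), ZNF304 (47.3) and ZNF432 (40.8) followed. ZNF568 and ZNF829 share a peak at rank 29.9. For 2 of these 17 members the nearest MP2_NTC peak lay within 10 kb, and for 2 it was over 100 kb away. Its median distance was 22121 bp.

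Members with peaks of MP2_NTC only had a median rank of 52.4 (n = 24), against 76.9 for the MP2_NTC peaks of the 115 members with both. ZNF708 stood apart at rank 94.7, with a peak from 21329073 to 21329389 that lies just inside the gene, and the nearest MP2_HDAC1_OE peak lay 176116 bp away. ZNF83 (74.7), ZNF430 (74.2), ZNF613 (65.4), ZNF554 (65.1), ZNF841 (65.1), ZNF254 (63.2) and ZNF552 (61.2) followed. ZNF17 (58.1), ZNF57 (54.4), ZNF587 (54.1) and ZNF549 (53.3) ranked next. For 2 of the 24 members the nearest MP2_HDAC1_OE peak lay within 10 kb, and for 9 it was over 100 kb away. Its median distance was 53384.5 bp. For neither class were these distances counted over all protein-coding genes. The ranks of single-line members are like those over all protein-coding genes, where the medians were 52.0 for MP2_HDAC1_OE only and 49.7 for MP2_NTC only.

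Peak width moved with these classes. A width of exactly 820 bp, the most frequent in both lists, was found for 15 of the 17 strongest peaks of members with MP2_HDAC1_OE only and for 41 of the 115 (35.7%) of members with both. In MP2_NTC it was found for 22 of the 24 and for 48 of the 115 (41.7%). All protein-coding genes had the same order, with 81.6% and 84.0% in the single-line classes. What part the width plays in the classes was not tested.

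Unique regions also lay beside shared regions. In MP2_HDAC1_OE this was so at ZNF700, ZNF576, ZNF524, ZNF787, ZNF805 and ZNF544, and in MP2_NTC at ZNF564, ZNF526, ZNF580, ZNF460, ZNF544 and ZNF8, among others. At ZNF787 the unique MP2_HDAC1_OE peaks had ranks of 21.5 and 51.0, beside 97.3 for the shared one. At ZNF460 the unique MP2_NTC peak had a rank of 79.7, and at ZNF544 the unique peaks had ranks of 79.1 in MP2_HDAC1_OE and 64.8 in MP2_NTC. Over these 12 cases the strongest unique peak ranked below the strongest shared peak of the same gene and line in 10. The cases were picked by rank, up to a set number per line, and this order was not counted over all protein-coding genes. In MP2_NTC, ZNF544 and ZNF8 have the same unique peak and the same strongest shared peak, so these cases are not separate. The exceptions were ZNF524, with 91.9 against 65.4 in MP2_HDAC1_OE, and ZNF580, with 36.6 against 18.7 in MP2_NTC.

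Along the chromosome the members fell into 20 groups when a new group was started at each gap of over 500 kb, and 10 of these clusters had at least 5 members and held 236 members. The share with a peak of either line ran from 43.2% to 80.0% among the 10 clusters. It was lowest in the cluster from ZNF101 to ZNF254 (19668153 to 24129968, 16 of 37 members) and next lowest in the cluster from ZNF175 to ZNF331 (51571283 to 53580269, 19 of 41, 46.3%). The other clusters of more than 10 members had 64.0% (ZNF653 to ZNF791, 16 of 25), 64.7% (ZNF628 to ZNF835, 11 of 17), 69.6% (ZNF575 to ZNF180, 16 of 23), 69.8% (ZNF264 to ZNF446, 30 of 43), 76.9% (ZNF565 to ZNF573, 20 of 26) and 78.6% (ZNF414 to ZNF846, 11 of 14). The small clusters from ZNF554 to ZNF77 and from ZNF302 to ZNF792 had 4 of 5 and 3 of 5 members with a peak. Of the 14 members outside these clusters, 10 had one.

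**Figure D3:**
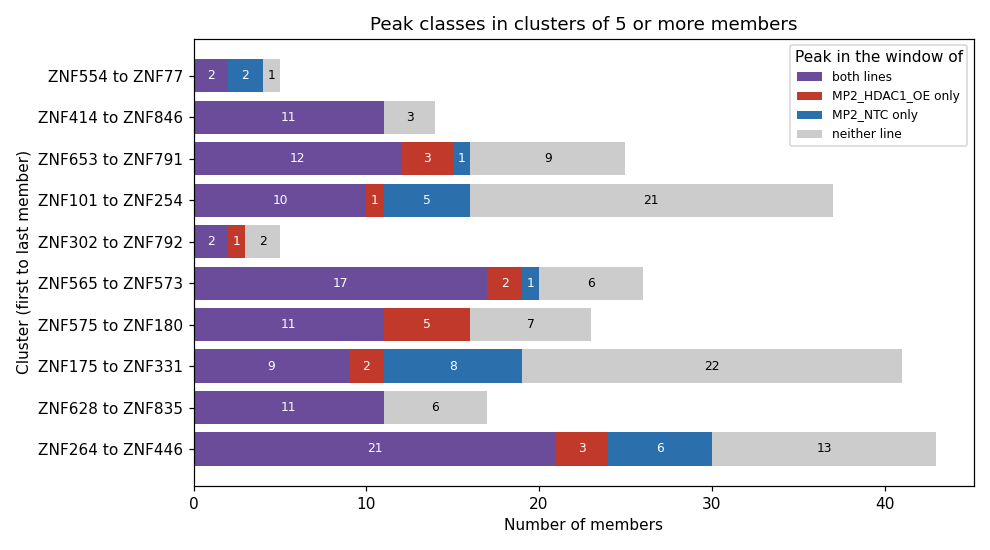
Number of members (x axis) with a peak of both lines, of MP2_HDAC1_OE only, of MP2_NTC only or of neither line in each cluster of at least 5 members, named by its first and last member (y axis). The cluster from ZNF175 to ZNF331 has 8 members with MP2_NTC only and 2 with MP2_HDAC1_OE only, and the cluster from ZNF575 to ZNF180 has 5 with MP2_HDAC1_OE only and 0 with MP2_NTC only.

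Members with peaks of a single line were found in 8 of the 10 clusters, beside 6.80% (MP2_HDAC1_OE) and 9.60% (MP2_NTC) over all members and 6.36% and 5.24% over all protein-coding genes. In the cluster from ZNF175 to ZNF331, 8 of 41 members had MP2_NTC peaks only (ZNF83, ZNF613, ZNF841, ZNF880, ZNF528, ZNF611, ZNF816 and ZNF816-ZNF321P) and 2 had MP2_HDAC1_OE peaks only (ZNF845 and ZNF432). ZNF528 and ZNF880 share a peak, and so do ZNF816 and its readthrough gene, so the 8 members stand for 6 peaks. In the cluster from ZNF575 to ZNF180, 5 of 23 members had MP2_HDAC1_OE peaks only (ZNF284, ZNF234, ZNF222, ZNF223 and ZNF233) and 0 had MP2_NTC peaks only. The cluster from ZNF101 to ZNF254 had 5 of 37 members with MP2_NTC only (ZNF708, ZNF430, ZNF254, ZNF66 and ZNF737) and ZNF100 with MP2_HDAC1_OE only. The cluster from ZNF264 to ZNF446 had 6 of 43 members with MP2_NTC only and 3 with MP2_HDAC1_OE only, and the cluster from ZNF653 to ZNF791 had 1 and 3 of 25. In the clusters from ZNF414 to ZNF846 and from ZNF628 to ZNF835 each of the 11 members with a peak had peaks of both lines.

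The rank differences of the clusters ran in both directions. Of genes with a peak of both lines, 62.6% of the members and 54.5% of all protein-coding genes were higher in MP2_HDAC1_OE. In the cluster from ZNF101 to ZNF254 the median difference was -17.8 points, with 7 of 10 members higher in MP2_NTC. ZNF85 had ranks of 44.9 in MP2_HDAC1_OE and 79.6 in MP2_NTC, ZNF724 had 56.6 and 86.7, and ZNF681 went the other way with 79.7 and 42.6. ZNF253 had the highest mean rank there, with 94.6 and 95.9. In the cluster from ZNF175 to ZNF331 the median difference was 19.4 points, with 8 of 9 members higher in MP2_HDAC1_OE, while its single-line members were mostly of MP2_NTC. ZNF480 had ranks of 79.0 and 45.0 and ZNF616 of 90.5 and 57.7, and ZNF615, with 90.6 and 93.0, was the exception. In the cluster from ZNF653 to ZNF791 the median was 15.5, with 8 of 12 members higher in MP2_HDAC1_OE, ZNF441 (90.4 and 51.3) among them. The medians were 10.1 from ZNF575 to ZNF180 and 7.89 from ZNF565 to ZNF573. They were close to 0 from ZNF264 to ZNF446 (1.44), from ZNF628 to ZNF835 (1.85) and from ZNF414 to ZNF846 (-1.07). The genes named in these sentences beyond ZNF253 were chosen after their values were seen.

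**Figure D4:**
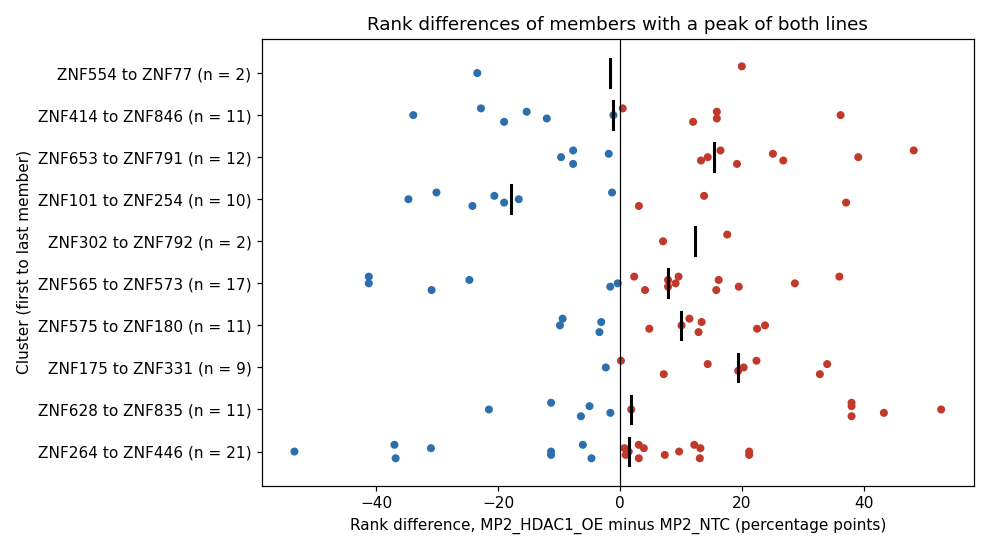
Difference in rank of the strongest peak, MP2_HDAC1_OE minus MP2_NTC (x axis, percentage points), of each member with a peak of both lines, by cluster (y axis, first to last member). Red points are higher in MP2_HDAC1_OE, blue points are higher in MP2_NTC, bars are medians, and the median is 19.4 from ZNF175 to ZNF331 and -17.8 from ZNF101 to ZNF254.

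Among members with a peak of both lines, the highest mean rank in each cluster of at least 5 members belonged, from the short arm to the long arm, to ZNF555 (66.3 and 89.7), ZNF317, ZNF627, ZNF253, ZNF181 (99.3 and 92.2), ZNF793, ZNF576 (88.1 and 97.5), ZNF766 (98.1 and 90.9), ZNF787 and ZNF497. ZNF253 and ZNF766, which lead the clusters with the lowest shares of members with a peak, were in the top 10% of both lists. Outside the clusters the neighbours ZNF546, ZNF780B and ZNF780A had ranks of 98.0, 88.9 and 91.4 in MP2_HDAC1_OE and 82.0, 48.9 and 76.6 in MP2_NTC.

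The 94 members without a peak in their windows were of different kinds. The nearest peak of either line lay at a median of 24650 bp from a gene end, within 10 kb of an end for 26 members and over 100 kb from both ends for 14. ZNF98, in the cluster from ZNF101 to ZNF254, had the ends farthest from any peak, at 623226 bp, and ZNF208 lay at 172022 bp. A peak inside the gene body, beyond the windows, was found at 23 members. When the window was placed at every start that RefSeq lists, 20 of the 94 had a peak, 18 of them of both lines. Windows at the gene ends alone do not assign these peaks to the 20 members. Some of the peaks were already counted at another member, as those of ZNF565 at ZNF146 and those of ZNF540 at ZNF571. The 20 members include ZNF574 (ranks of 99.6 in MP2_HDAC1_OE and 98.8 in MP2_NTC), ZNF529 (98.6 and 94.9), ZNF584 (97.0 and 92.1), ZNF420 (96.6 and 82.4) and ZNF558 (90.1 and 92.5). The imprinted gene ZNF331 is another, with a rank of 65.8 in MP2_HDAC1_OE and of 44.6 in MP2_NTC at different starts inside the gene. At ZNF444, too, the strongest peaks of the lines did not overlap. The counts in this paragraph were not made over all protein-coding genes without a peak, so none is shown to be particular to the members.

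A few members with a known role were picked for that role, outside the rule for named genes and with the values at hand. ZNF91, which represses SVA retrotransposons, had ranks of 77.7 in MP2_HDAC1_OE and 96.8 in MP2_NTC. ZNF93, which represses LINE-1 elements, had no peak in its windows, and the nearest lay 34344 bp from an end. ZNF274, which recruits SETDB1 to the ends of zinc finger genes, had ranks of 84.5 and 95.8. ZNF154 and ZNF671, whose promoters are often methylated in carcinomas, had no peak in their windows, with the nearest at 13471 and 19041 bp from an end.

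Promoters of the members shared features that the choice of symbols did not use. Motifs were searched as exact letters on both strands over the 300 bases, and matches of different motifs may overlap. The ETS core, CCGGAA, was found in 122 of 219 member promoters (55.7%), against 22.7% of the 15843 protein-coding promoters and 44.0% of those of ZNF genes on other chromosomes. The CCAAT box, searched as CCAAT, was in 118 (53.9%, against 36.4%), and the GC box, GGGCGG, in 147 (67.1%, against 58.3%). The TATA box, TATAAA, was in 5 (2.28%, against 9.75%). A core of NRF1 sites, GCGCATGC, was in 10 (4.57%, against 4.28%), one of YY1, AAGATGGCG, in 8 (3.65%, against 2.69%), and one of ZNF143, ACTACAA, in 11 (5.02%, against 3.13%). The cyclic AMP response element, TGACGTCA, was in 7 (3.20%, against 2.56%). A match is a description of the letters and does not show that a factor binds.

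The motifs varied between clusters. The ETS core was in 58.2% of the promoters of members with a peak and 51.3% of those without, whereas over all protein-coding genes it was in 33.4% and 11.6%. CCAAT was in 52.5% and 56.4% of the members' promoters. By cluster, the ETS core was in 23 of 29 promoters from ZNF101 to ZNF254 and 31 of 40 from ZNF264 to ZNF446, but in 6 of 24 from ZNF653 to ZNF791 and 8 of 25 from ZNF565 to ZNF573. From ZNF653 to ZNF791 it was in 6 of 16 promoters with a peak and 0 of 8 without, and from ZNF575 to ZNF180 in 7 of 13 and 0 of 6. From ZNF175 to ZNF331 the ETS core was in 13 of 17 and 12 of 17. The order was the opposite from ZNF264 to ZNF446 (20 of 27 with a peak and 11 of 13 without) and from ZNF414 to ZNF846 (4 of 9 and 2 of 3). CCAAT was in all 29 listed promoters of the cluster from ZNF101 to ZNF254 and in 22 of 24 from ZNF653 to ZNF791, but in 10 of 34 from ZNF175 to ZNF331 and 6 of 25 from ZNF565 to ZNF573. The cyclic AMP response element was in 5 of 12 promoters from ZNF414 to ZNF846 (ZNF266, ZNF426, ZNF121, ZNF561 and ZNF562) and in ZNF543 and ZNF547. These 7 members had peaks of both lines, as had each of the 11 members with a peak from ZNF414 to ZNF846. Of the 406 protein-coding promoters with the element, 282 belonged to genes with a peak of either line. Of the 5 promoters with TATAAA, 3 lay in the cluster from ZNF101 to ZNF254, ZNF708 among them.

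CpG content set the cluster from ZNF101 to ZNF254 apart. The ratio of observed to expected CpG had a median of 0.438 over its 29 promoters, with a median of 10 CpG in 300 bases, against 0.761 over the 219 member promoters and also 0.761 over all protein-coding promoters. The next lowest median was 0.609, from ZNF653 to ZNF791, and the other 8 clusters had medians from 0.749 to 0.869. Within the cluster from ZNF101 to ZNF254 the median was 0.452 for members with a peak and 0.426 for those without, so the classes overlapped. In the cluster from ZNF175 to ZNF331, the other cluster with few peaks, the medians were 0.850 and 0.828. Over all members the median was 0.780 with a peak and 0.692 without, a smaller gap than the 0.856 and 0.487 over all protein-coding genes. No member promoter shared a stretch of 75 bases, the read length, with another protein-coding promoter (0 of 219, against 451 of 15843). Promoters that overlap on the chromosome, such as those of a gene and its readthrough gene, were not compared with each other. Only exact matches between 1 promoter of 300 bases per gene were sought, and 31 members had no listed promoter. Whether reads can be placed uniquely in the windows was not tested.

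**Figure D5:**
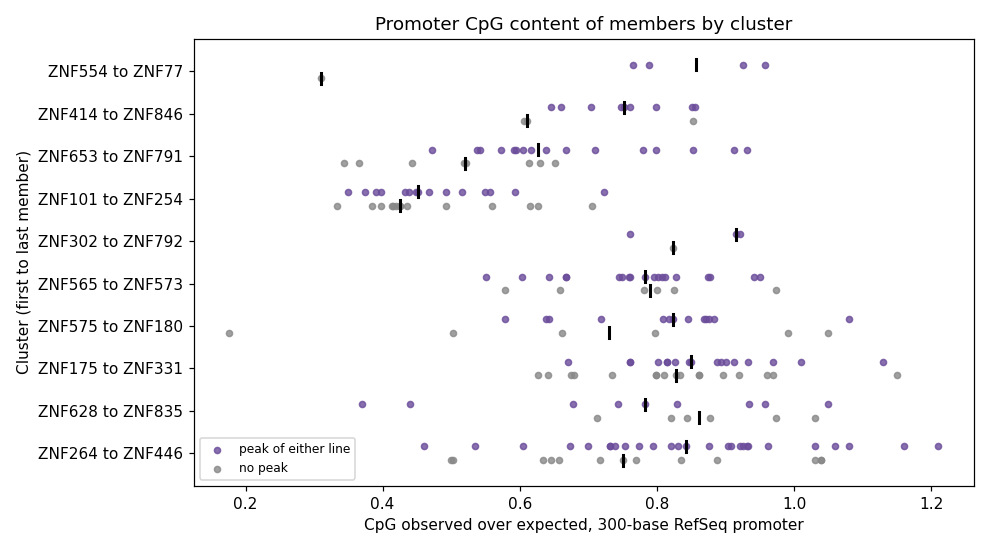
Ratio of observed to expected CpG in the 300-base RefSeq promoter (x axis) of each member, by cluster (y axis, first to last member). Purple points have a peak of either line, grey points have none, bars are medians, and the cluster from ZNF101 to ZNF254 has medians of 0.452 with a peak and 0.426 without.

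Genes listed around the corepressor that KRAB zinc finger proteins recruit mostly had peaks of both lines. The list held TRIM28, SETDB1, ATF7IP, CBX1, CBX3, CBX5, CHD3, CHD4, MTA1, MTA2, RBBP4, RBBP7, HDAC1 and HDAC2. It also held DNMT1, ATRX, DAXX, MORC2, TASOR, MPHOSPH8 and PPHLN1, so it is wider than the partners of TRIM28 named above. Of 21 listed genes, 20 had a peak of both lines, against 36.9% of all protein-coding genes, and PPHLN1, of the HUSH complex, had an MP2_NTC peak only (rank 75.6). Their median ranks were 82.4 in MP2_HDAC1_OE and 80.0 in MP2_NTC, against 76.5 and 74.5, and their median difference was -1.50 points, with 9 genes higher in MP2_HDAC1_OE and 11 higher in MP2_NTC. TRIM28, the corepressor itself and a neighbour of the last zinc finger cluster, had ranks of 92.5 and 74.5. SETDB1 had 95 and 93.6. HDAC1, the activated gene, had 93.9 and 45.2, while HDAC2, its paralog, had 80.7 and 97.7. MPHOSPH8, of the HUSH complex, had the largest difference, with 68.2 and 9.30.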

How the data were processed

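H3K27ac ChIP-seq was done by the authors with antibody ab4729 and 75 bp reads on 2 samples per line, with 2 controls per line. Per the labels, the ENCODE pipeline was run on hg38, and the submitters' processing notes name BWA 0.7.12, SAMtools and Picard. The peak caller is not given in the sources used here. The deposited peak lists (optimal IDR set, 1 per line, pooled over samples) hold intervals, a summit, a signal and a score. The deposited signal is a value per peak, and since no source says how it was scaled between lines, it served only to rank peaks within a list. The deposited score (540 to 1000) was not used in any result. The lists hold no read counts, so the depth per sample is unknown.

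Genes, strands and promoters came from RefSeq tables (GRCh38.p14). Windows, regions, ranks and clusters were computed as given in the text, with matplotlib 3.10.9, scipy 1.17.1, pandas 2.3.3 and numpy 2.4.6 under Python 3.11.15. Class assignment was tested on simulated data. Shares have 95% Wilson intervals and medians order-statistic intervals. No test between lines was possible. Named genes were, up to a set number each, the highest-ranked members of a single line, the highest and lowest mean ranks, the largest rank differences, the leader of each cluster of at least 5 members, members with a unique beside a shared region, and members with regions at both ends. The members and lists were chosen with earlier results of these data known. Alternatives covered the window, the peaks used, the overlap, the ranks and the gap between clusters. Protein features were not analysed.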

Additional observations from a re-analysis of the deposited data

How the results depend on the processing

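Of 117 values under 16 alternatives for 13 results, 110 stayed within 1.5 times the count, or within the interval of the median or share, given above, and 7 moved. When a peak had to overlap at least 50% of both peaks, 76 members had a region unique to MP2_HDAC1_OE and 79 one unique to MP2_NTC. With windows of 2 kb outside the gene end only, 32 members had a peak of MP2_HDAC1_OE only. Among the 186 members with no other coding gene's end in the window, 20 had a region unique to MP2_NTC. That count was set unscaled against 32 of all 250 members. With the top 75% of peaks the median ranks were 76.4 in MP2_HDAC1_OE and 65.4 in MP2_NTC, and among promoter peaks the MP2_HDAC1_OE median was 77.0. Both settings rank against fewer peaks, which by itself changes every rank, so these moves do not show that the members depend on the processing. More members had MP2_NTC only than MP2_HDAC1_OE only in 9 of 10 settings that gave both counts. The exception was the 2 kb outside the end (25 and 32). The counts were nearly equal, 16 and 15, among the 186 members with no other coding gene's end in the window. All settings reuse the same 2 lists, so they are not independent. The median rank difference ran from 3.41 to 6.70 and did not change sign. Windows at every listed start, each distinct peak counted once and overlapping strongest peaks were chosen after seeing the data. Restricting members to proteins with at least 3 fingers was not run. No paired analysis was possible because the samples of a line were pooled before deposit. The unknown depth limits what the absence of a peak shows.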
